A study of Mus musculus with 24 samples.

Results

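Hspg2, the gene for perlecan, was followed here together with 9 other genes of the basement membrane across 8 groups of Neuro2A cells, a mouse neuroblastoma line. The 10 genes (Hspg2, Agrn, Lama1, Lama5, Lamb1, Lamb2, Lamc1, Col4a1, Col4a2 and Nid1) were taken by symbol from a table of 39253 genes, and all 10 are in it. Hspg2 was chosen by its own values, since it was among the strongest rises with the crRNA against the ataxin-2 transcript (mATXN2). Its differences between mATXN2 and the non-targeting crRNA (NTG), and all others that reuse those samples, are therefore given as a description with no test. The other 9 genes were tested, with the question of whether they shared the rise. Of these, 7 passed the filter on low counts (at least 0.5 CPM, a count scaled to its library's total, in at least 3 samples), and Lama1 and Lamb1 did not.

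The 24 samples form 8 groups of 3 biological replicates. Plasmids for RfxCas13d, for its high-fidelity variant HiFi-RfxCas13d or for DiCas7-11, all CRISPR effector proteins that cut RNA, were delivered by transient transfection with either the mATXN2 or the NTG crRNA, and cells were harvested at 48 hr. Untransfected cells served as the negative control, and an ASO (antisense oligonucleotide) targeting ataxin-2 as the positive control, with the same protocol text in the labels and no time of its own. All groups are the same line, and no sorting of transfected cells is stated. The table's columns name the control libraries EV and the targeting libraries G12, where the labels say NTG and G10, so that what the control arm received rests on the labels.

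Basement membranes are thin sheets of extracellular matrix. Laminins, heterotrimers of an α, a β and a γ chain, and type IV collagen, a trimer built here from the products of Col4a1 and Col4a2, each form a network. Nidogen-1 (Nid1) and the heparan sulfate proteoglycans perlecan and agrin (Agrn) connect them, and cells hold on through integrins and dystroglycan. In the nervous system agrin is best known for gathering acetylcholine receptors at the neuromuscular junction, and perlecan for binding growth factors.

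Library totals lay between 12665725 and 22504999 counts, with the ASO libraries at 21874644 to 22504999. Replicate pairs had a chi-square per gene, which is 1 for counting noise alone, of 1.68 to 2.55 in 7 groups and of 3.33 to 5.58 among the DiCas7-11 NTG libraries. Atxn2, the targeted gene, was at 123 ± 1.8 CPM (SD, n = 3) in untransfected cells and 52.0 ± 2.8 with the ASO. It was lower with mATXN2 than NTG in HiFi-RfxCas13d (log2 fold change -0.23 ± 0.04 SE, adjusted p = 0.0016) and DiCas7-11 (-0.20 ± 0.04, adjusted p = 0.0056), while in RfxCas13d the difference of -0.10 ± 0.04 did not pass (adjusted p = 0.18). All adjusted p-values are from edgeR's quasi-likelihood test on all tested genes, by the Benjamini-Hochberg method, with a threshold of 0.05. Summed markers of fibroblasts or pericytes were at 10.9 to 16.7 CPM, highest in the untransfected cells (16.4 to 16.7, against 10.9 to 14.8 elsewhere), those of Schwann cells and endothelial cells at 11.2 to 18.9, and those of macrophages at 0.0642 to 2.36, highest with the ASO (1.05 to 2.36). Neuroblast markers summed to 2635 to 3000 CPM, lowest with the ASO (2635 to 2661), and Hand2 and Chgb, markers of this lineage, were present in every sample. Col1a2, Foxd3, Emcn and Adgre1, each defining for another cell type, had no count in at least 23 of 24 samples. The part of other cells in the results was not tested.

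RefSeq's promoter windows for GRCm38.p6 hold 8 of the 10 genes. The 250 bases before the annotated start are shown for Hspg2 and Lama5, the longest members and those with the largest differences between the crRNAs averaged over effectors, with every GGGCGG or CCGCCC (a GC box on either strand) in capitals. The Hspg2 window is chr4:137468553-137468802 on the plus strand, and the Lama5 window chr2:180225860-180226109 on the minus strand, both read 5′ to 3′ on the gene's strand.
Hspg2: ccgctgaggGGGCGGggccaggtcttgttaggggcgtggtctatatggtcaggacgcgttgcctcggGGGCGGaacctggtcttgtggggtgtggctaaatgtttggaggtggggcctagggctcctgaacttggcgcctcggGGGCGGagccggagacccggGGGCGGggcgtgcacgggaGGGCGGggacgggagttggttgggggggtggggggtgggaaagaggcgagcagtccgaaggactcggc
Lama5: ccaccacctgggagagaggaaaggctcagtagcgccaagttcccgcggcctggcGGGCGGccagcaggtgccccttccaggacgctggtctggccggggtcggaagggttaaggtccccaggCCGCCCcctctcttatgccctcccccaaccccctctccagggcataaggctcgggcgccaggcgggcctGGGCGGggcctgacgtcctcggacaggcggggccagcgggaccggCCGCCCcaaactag
The Hspg2 stretch holds 5 GC boxes and the Lama5 stretch 4, where 32.7% of 32851 mouse windows of this length hold at least 1 and 1.93% hold 5 or more. Neither stretch holds TATAAA or its reverse complement TTTATA, which 12.4% of windows do, or CCAAT or ATTGG, which 33.8% do. Of the members not printed, Agrn has windows with 12 and 2 GC boxes. Those of Col4a2 and Lamb1 hold 2 each, that of Nid1 holds 1, and those of Col4a1 and Lamb2 hold 0. Col4a1 and Col4a2 lie head to head on chromosome 8, with annotated starts at 11312826 on the minus strand and 11312805 on the plus strand. As annotated, the genes overlap by 22 bases. These letters are a description, and the build differs from the GRCm39 of the deposited counts, which carry no coordinates.

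Neuro2A cells expressed a partial set of basement membrane genes. Per kilobase of transcript, Col4a2 was highest in untransfected cells at 61.6 CPM, followed by Lamc1 (42.7) and Col4a1 (42.6), which were level with each other. Agrn stood at 21.1 CPM per kilobase, Hspg2 at 6.11, Lama5 at 3.87, Lamb2 at 2.93 and Nid1 at 0.956. The γ chain gene Lamc1 was therefore far above the tested α and β chain genes among the members. Lama4, an α chain gene outside the members, was at 12.5 CPM per kilobase. Lama1, the α chain gene of early embryonic laminin, had at most 4.6 counts in any sample and none in 4 of 24. Lamb1 had at most 3.01 counts and none in 16 of 24, so that neither gave a level that could be compared.

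**Figure D1:**
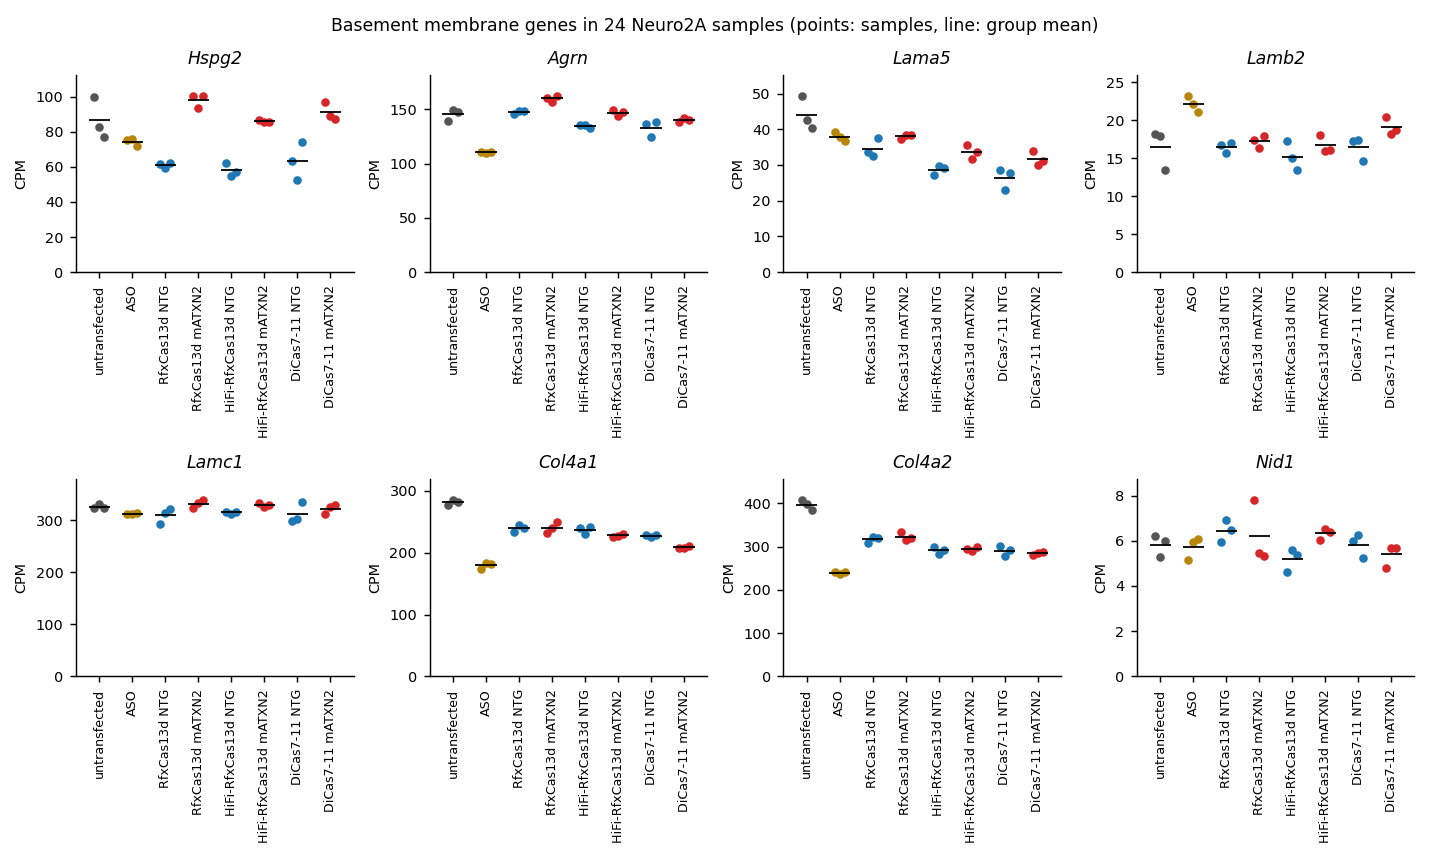
CPM of the 8 tested members in all 24 samples, with a point per sample, a line at each group mean and axes from 0. In Hspg2 the NTG samples (blue, 52.6 to 74.4 CPM) lie below the mATXN2 samples (red, 85.4 to 101), while Col4a1 and Col4a2 are highest in untransfected cells and lowest with the ASO.

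Hspg2 was higher with mATXN2 than with NTG in all 3 effectors. With RfxCas13d it was at 61.4, 59.5 and 62.0 CPM in the NTG samples and at 101, 93.7 and 100.4 in the mATXN2 samples. With HiFi-RfxCas13d the NTG samples had 62.3, 54.8 and 57.3 CPM and the mATXN2 samples 86.99, 85.5 and 85.4. With DiCas7-11 the values were 63.2, 52.6 and 74.4 CPM against 97.2, 89.3 and 87.5. In each effector the lowest mATXN2 sample was above the highest NTG sample. The differences were 0.69 ± 0.08 on the log2 scale (SE), 0.57 ± 0.08 and 0.53 ± 0.08, or 61.0%, 48.0% and 44.5% more. Among genes with a mean of at least 50 counts, Hspg2 held rank 6 of 10844, 9 of 10877 and 14 of 10839 by this difference. Since Hspg2 was chosen for this contrast, these values carry no test. In whole cultures, a change in the number of cells that make a transcript and a change in its amount per cell cannot be told apart.

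Beside the untransfected cells, the mATXN2 samples were not the ones that stood apart. Untransfected cells had 99.9, 82.6 and 77.2 CPM of Hspg2 (86.6 ± 11.9, SD, n = 3), a spread that covers the mATXN2 means of 98.3 ± 3.9, 85.9 ± 0.90 and 91.3 ± 5.2. The NTG means of 61.0 ± 1.3, 58.1 ± 3.8 and 63.4 ± 10.9 were below all 3 untransfected samples, by 0.51 ± 0.08, 0.58 ± 0.08 and 0.46 ± 0.08 on the log2 scale. These are the same NTG samples as in the comparison of the crRNAs, so the 2 sets of differences are not independent. In order of group means Hspg2 ran from the NTG groups through the ASO (75.2, 75.8 and 72.1 CPM) to HiFi-RfxCas13d mATXN2, untransfected, DiCas7-11 mATXN2 and RfxCas13d mATXN2. Ranges of neighbouring groups overlapped within the NTG set, and the untransfected range overlapped those of all 3 mATXN2 groups.

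The other members did not share a rise of that size. At the level of single effectors, 0 of 7 tested members were called in RfxCas13d (background 1.39% of 13901 genes), 0 of 7 in HiFi-RfxCas13d (background 0.295%) and 1 of 7 in DiCas7-11 (background 0.942%), where Col4a1 fell. The DiCas7-11 background was 4.36% without NTG replicate 1 and 0.115% without NTG replicate 2. At an unadjusted p under 0.05 the counts were 2, 3 and 4 of 7, beside 1913, 1035 and 1951 of all 13901 genes. DESeq2 called 1 member in each effector, beside 4.94%, 1.57% and 7.28% of the genes it gave an adjusted p. Limma-trend, the test of the study, called 2 in each, beside 5.09%, 1.94% and 4.58% of all genes. Their median log2 fold changes were 0.06, 0.13 and 0.04, with medians of all tested genes at 0.00162, -0.000997 and -0.000985. Samples of the crRNAs did not overlap in 2 of 7 members with RfxCas13d, 4 of 7 with HiFi-RfxCas13d and 3 of 7 with DiCas7-11, where 20.2%, 13.2% and 14.5% of all tested genes did not overlap.

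**Figure D2:**
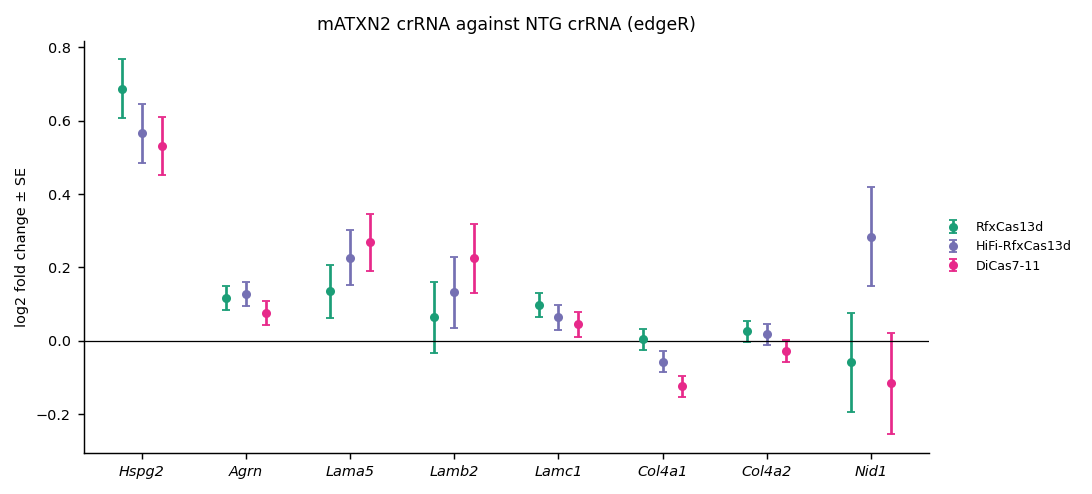
Log2 fold change of mATXN2 against NTG for the 8 tested members in each effector, with SE from edgeR as bars. Hspg2 lies between 0.53 and 0.69, Lama5 between 0.13 and 0.27, and Col4a1 between -0.12 and 0.00.

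Lama5, the α chain gene of laminins in mature basement membranes, was the nearest to Hspg2 in RfxCas13d, DiCas7-11 and the average of effectors, and second to Nid1 in HiFi-RfxCas13d. Its NTG samples had 33.8, 32.5 and 37.4 CPM with RfxCas13d, and the mATXN2 samples 37.4, 38.3 and 38.4. With HiFi-RfxCas13d the values were 27.3, 29.6 and 29.1 CPM against 35.6, 31.6 and 33.7. With DiCas7-11 they were 28.5, 23.0 and 27.7 CPM against 33.9, 29.9 and 31.0. The groups met only in RfxCas13d, and the differences of 0.13 ± 0.07, 0.23 ± 0.08 and 0.27 ± 0.08 (log2 scale) did not pass in any effector (adjusted p = 0.43, 0.34 and 0.092). Without DiCas7-11 NTG replicate 1 the last was called, at 0.32 with an adjusted p of 0.027. Limma-trend called Lama5 in HiFi-RfxCas13d (0.23, adjusted p = 0.033) and DiCas7-11 (0.26, adjusted p = 0.015). With no filter on low counts edgeR called it in DiCas7-11 (adjusted p = 0.0074). An offset for coding length gave 0.08 in HiFi-RfxCas13d and 0.14 in DiCas7-11 (adjusted p = 0.87 and 0.37).

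Averaged over the 3 effectors, a contrast with more samples behind it and a background of 5.19% of genes called, 4 of 7 members passed. Lama5 rose by 0.21 ± 0.04 on the log2 scale (adjusted p = 0.0035), Agrn by 0.11 ± 0.02 (adjusted p = 0.00074) and Lamc1 by 0.07 ± 0.02 (adjusted p = 0.033), and Col4a1 fell by 0.06 ± 0.02 (adjusted p = 0.030). Hspg2 differed by 0.59 ± 0.05 in the same average. Lamb2, a β chain gene of synaptic and kidney laminins, was at 0.14 ± 0.06 (adjusted p = 0.16), Col4a2 at 0.00 ± 0.02 (adjusted p = 0.93) and Nid1 at 0.04 ± 0.08 (adjusted p = 0.87). The count was 2 without HiFi-RfxCas13d NTG replicate 3, and Lamc1 was not called when only these samples were fitted (adjusted p = 0.060). The Lamc1 call was lost without any 1 of 11 of the 18 libraries (adjusted p = 0.055 to 0.097): RfxCas13d NTG replicate 1, RfxCas13d mATXN2 replicates 2 and 3, HiFi-RfxCas13d NTG replicates 2 and 3, HiFi-RfxCas13d mATXN2 replicates 1 and 3, DiCas7-11 NTG replicates 1 and 2, and DiCas7-11 mATXN2 replicates 2 and 3. The Col4a1 call was lost without any 1 of 5 (adjusted p = 0.058 to 0.070): RfxCas13d NTG replicate 2, RfxCas13d mATXN2 replicate 1, HiFi-RfxCas13d NTG replicates 1 and 3, and DiCas7-11 mATXN2 replicate 1.

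Agrn was higher with mATXN2 in each effector. In RfxCas13d its NTG samples had 146, 149 and 148 CPM and its mATXN2 samples 161, 157 and 163, and in HiFi-RfxCas13d 136, 135 and 133 against 149.9, 144 and 148. In DiCas7-11 the groups met, at 137, 124 and 138 CPM against 138, 142 and 141. The fold changes were 0.12 ± 0.03, 0.13 ± 0.03 and 0.08 ± 0.03 on the log2 scale, with adjusted p = 0.071, 0.12 and 0.30. DESeq2 called Agrn in RfxCas13d and HiFi-RfxCas13d (adjusted p = 0.0496 and 0.045), as did limma-trend (adjusted p = 0.015 and 0.0077). With only the samples compared edgeR called it in RfxCas13d (adjusted p = 0.028), and with no filter in HiFi-RfxCas13d (adjusted p = 0.041). An offset for coding length gave 0.07, 0.07 and 0.02 (adjusted p = 0.35, 0.69 and 0.83).

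The type IV collagen genes did not rise. Col4a1 in DiCas7-11 was at 229, 225 and 229 CPM with NTG and at 207, 208 and 212 with mATXN2, with no overlap, and fell by 0.12 ± 0.03 on the log2 scale (adjusted p = 0.027). That call was lost without any 1 of 5 of the 6 libraries, all but DiCas7-11 NTG replicate 1 (adjusted p = 0.058 to 0.14), and when only these 6 samples were fitted (adjusted p = 0.27). Its partner Col4a2 gave -0.03 ± 0.03 there (adjusted p = 0.74). In RfxCas13d and HiFi-RfxCas13d the 2 genes lay between -0.06 and 0.03 on the log2 scale, and none passed (lowest adjusted p = 0.68).

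Nid1, at 4.60 to 7.80 CPM the lowest tested member, gave the least precise differences. They were -0.06 ± 0.13, 0.28 ± 0.14 and -0.12 ± 0.14 on the log2 scale for RfxCas13d, HiFi-RfxCas13d and DiCas7-11 (adjusted p = 0.91, 0.67 and 0.78).

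Hspg2, chosen for its difference, and Lama5 were the longest members and had the largest differences in the average of effectors. The others did not follow length. Lamb2 was at 0.14 and Agrn at 0.11 on the log2 scale in the average, and Nid1, the shortest, at 0.28 in HiFi-RfxCas13d. Hspg2 has the longest coding sequence (13149 bases), then Lama5 (11154), with Agrn at 6102 and the other tested members at 3735 to 5397. Across all genes with coding sequences over 10000 bases, 64 in number, the median difference between the crRNAs was 0.20, 0.23 and 0.21 on the log2 scale in the 3 effectors, and 82.8%, 92.2% and 87.5% of them were higher with mATXN2. In the 11074 genes shorter than any tested member it was -0.00274, -0.00445 and -0.00434. When this trend was taken out with an offset per gene and library, Hspg2 stayed higher, at 0.54, 0.40 and 0.39, and at 0.44 in the average of effectors. The calls of Lama5, Agrn and Lamc1 in the average were lost with the offset (0.08, 0.06 and 0.04, adjusted p = 0.30, 0.11 and 0.16), and Col4a1 remained called at -0.09 (adjusted p = 0.0022). With an offset for length and GC content together, added after seeing the data, Hspg2 was at 0.49, 0.41 and 0.33. The source of the trend with length was not tested.

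**Figure D3:**
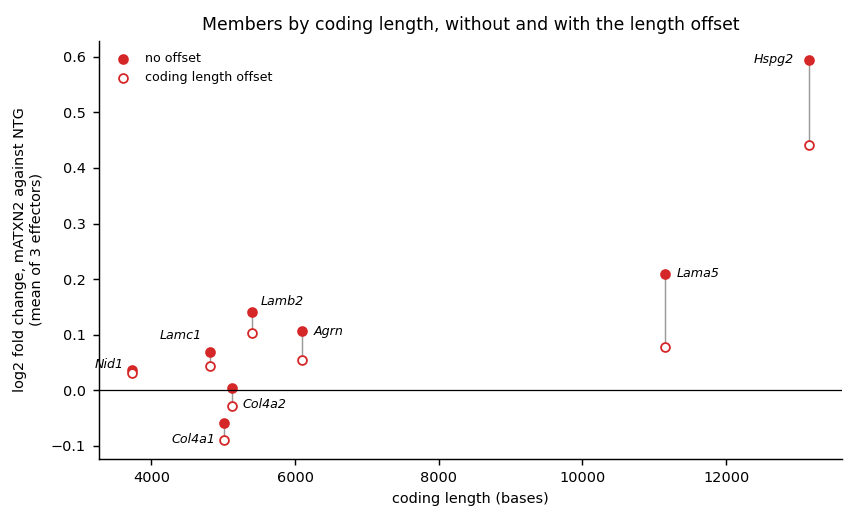
Log2 fold change of mATXN2 against NTG, averaged over the 3 effectors, by the coding length of each tested member in bases, without (filled) and with (open) the offset for coding length. Hspg2 moves from 0.59 to 0.44 and Lama5 from 0.21 to 0.08, while the other members move by less.

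The response did not differ detectably between effectors in any other member. In the 3 tests of the difference between responses, 0 of 7 members were called by edgeR, DESeq2 or limma-trend, and 0, 1 and 1 had an unadjusted p under 0.05. Over all 13901 genes edgeR called 0 in each, with 855, 1084 and 1028 at an unadjusted p under 0.05. The unadjusted p values under 0.05 were those of Col4a1 for DiCas7-11 against RfxCas13d (-0.13 ± 0.04) and Nid1 for DiCas7-11 against HiFi-RfxCas13d (-0.40 ± 0.19).

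Compared with untransfected cells, the NTG samples had less Col4a1, Col4a2 and Lama5 in all 3 effectors. These comparisons share the untransfected samples, and backgrounds were 11.3%, 20.9% and 21.9% of genes called for RfxCas13d, HiFi-RfxCas13d and DiCas7-11, where 3, 4 and 4 of 7 members were called, all lower. Col4a2 was at 408, 399 and 385 CPM in untransfected cells, against 309, 322 and 319 in RfxCas13d NTG, 300.2, 282 and 292 in HiFi-RfxCas13d NTG, and 301, 279 and 293 in DiCas7-11 NTG. No NTG sample reached the untransfected range. It fell by 0.33 ± 0.03, 0.45 ± 0.03 and 0.45 ± 0.03 on the log2 scale (adjusted p = 2.9e-09, 8.4e-12 and 1.0e-11).

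Col4a1 moved with it, from 277, 285 and 282 CPM in untransfected cells to group means of 240, 237 and 228. It fell by 0.23 ± 0.03, 0.25 ± 0.03 and 0.31 ± 0.03 on the log2 scale (adjusted p = 1.2e-06, 3.3e-07 and 5.7e-09). Lama5 had 49.4, 42.5 and 40.4 CPM in untransfected cells and means of 34.6, 28.7 and 26.4 in the NTG groups, with no overlap. It fell by 0.35 ± 0.07, 0.62 ± 0.07 and 0.75 ± 0.08 on the log2 scale (adjusted p = 0.0015, 6.6e-07 and 3.1e-08). All calls of these 3 genes were kept with the length offset and without any single library.

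Agrn fell by less, by 0.11 ± 0.03 in HiFi-RfxCas13d (adjusted p = 0.015) and 0.13 ± 0.03 in DiCas7-11 (adjusted p = 0.0054) on the log2 scale, and was at 0.02 ± 0.03 in RfxCas13d (adjusted p = 0.77). The HiFi-RfxCas13d call was lost without untransfected replicate 2 or HiFi-RfxCas13d NTG replicate 3 (adjusted p = 0.10 and 0.067), and the DiCas7-11 call without DiCas7-11 NTG replicate 2 (-0.08, adjusted p = 0.092) or when only the samples compared were fitted (adjusted p = 0.084). The length offset ended the HiFi-RfxCas13d call (adjusted p = 0.0501), and an offset for GC content, added after seeing the data, ended both (adjusted p = 0.37 and 0.24). With the length and GC offset together Agrn was called higher in RfxCas13d NTG (0.10, adjusted p = 0.027). Lamb2, Lamc1 and Nid1 passed in none of the 3 (lowest adjusted p = 0.17). Lamc1 in DiCas7-11 was called without DiCas7-11 NTG replicate 3, at -0.12 (adjusted p = 0.0068).

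**Figure D4:**
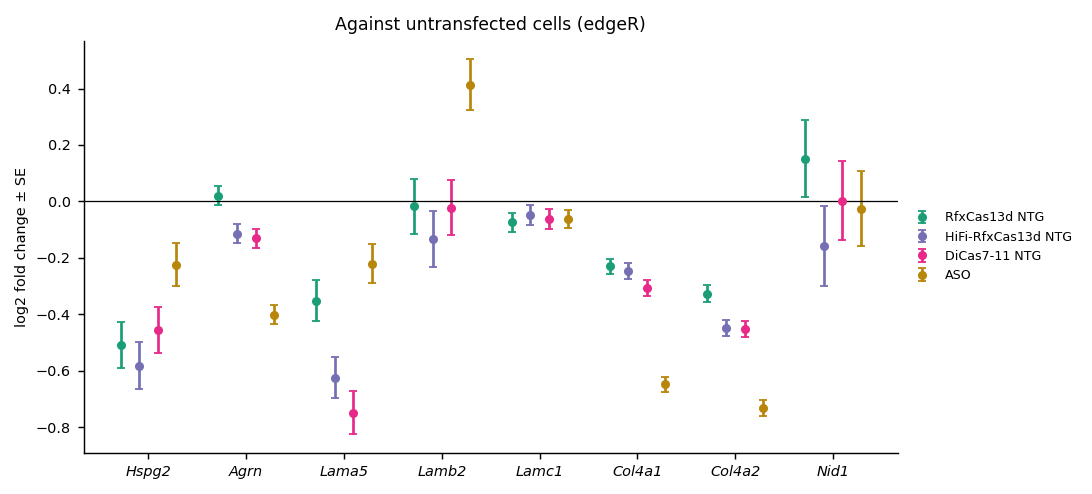
Log2 fold change ± SE of the 8 tested members against untransfected cells, for the NTG samples of each effector and for the ASO. Col4a1, Col4a2 and Lama5 are below 0 in all 4, Lamb2 is above 0 with the ASO only (0.41), and Hspg2 lies between -0.58 and -0.22.

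With the ASO, 42.7% of all genes were called, and so were 5 of the 7 other members (4 lower, 1 higher). Hspg2 can be tested here, since the ASO samples took no part in its choice, although the untransfected samples are those used above. It was at 75.2, 75.8 and 72.1 CPM against 99.9, 82.6 and 77.2, just below the untransfected range, and fell by 0.22 ± 0.08 on the log2 scale (adjusted p = 0.018). The call was lost without untransfected replicate 1 (-0.11, adjusted p = 0.29), without ASO replicate 3 (-0.20, adjusted p = 0.066), and with DESeq2 (adjusted p = 0.064) or limma-trend (adjusted p = 0.074). The direction of this difference is opposite to that of mATXN2 against NTG, with a different control in each.

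The collagen genes changed most with the ASO among the members. Col4a2 fell by 0.73 ± 0.03 on the log2 scale to 241, 236 and 240.3 CPM (adjusted p = 2.2e-17), and Col4a1 by 0.65 ± 0.03 to 173, 183 and 182 CPM (adjusted p = 1.2e-16). Agrn fell by 0.40 ± 0.03 to 111, 109 and 111 CPM (adjusted p = 7.7e-11). All ASO samples of these genes were below every other sample in the series. Lama5 fell by 0.22 ± 0.07 to 39.2, 37.9 and 36.8 CPM (adjusted p = 0.0096). That call was lost without untransfected replicate 1 (-0.13, adjusted p = 0.16) and with limma-trend (-0.21, adjusted p = 0.051).

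Lamb2 was the member that rose with the ASO. It had 18.2, 17.9 and 13.4 CPM in untransfected cells and 23.2, 22.2 and 21.1 with the ASO, and rose by 0.41 ± 0.09 on the log2 scale (adjusted p = 0.00047). Lamc1 (-0.06 ± 0.03, adjusted p = 0.14) and Nid1 (-0.03 ± 0.13, adjusted p = 0.90) did not pass. Lamc1 was called when only the samples compared were fitted (-0.06, adjusted p = 0.042). The 64 longest genes had a median of 0.41 here, opposite in sign to Hspg2 and Lama5. With the length offset Hspg2 was at -0.49 and Lama5 at -0.45 (adjusted p = 1.9e-07 and 8.2e-07), and Lamc1 was called at -0.12 (adjusted p = 0.0012).

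A wider list of 87 genes covered other basement membrane components, their receptors, heparan sulfate and collagen processing, and proteases, and 65 of them were tested. No gene of the list was called higher with mATXN2 by edgeR in a single effector. In RfxCas13d 2 were called, both lower (3.08%, background 1.39%): Sparc, a collagen-binding matricellular protein (-0.15 ± 0.04, adjusted p = 0.031), and Mia3, which helps load large collagens for export (-0.11 ± 0.03, adjusted p = 0.037). In DiCas7-11 the integrin β1 gene Itgb1 alone was called, at -0.09 ± 0.02 (adjusted p = 0.027). In HiFi-RfxCas13d edgeR and DESeq2 called 0 of 65, limma-trend 1 (background 1.94%), and 5 had an unadjusted p under 0.05, beside 1035 of all 13901 genes. There B3galt6 was at -0.13 ± 0.11, and among genes with a mean of at least 50 counts the widest differences above 0 were those of Sulf1 (0.38 ± 0.18) and Ndst1 (0.13 ± 0.05). Vwa1, with means of 12.7 CPM against 3.34 and overlapping samples, was at 1.95 ± 0.52 in RfxCas13d (adjusted p = 0.056), and at -0.36 and -0.27 in HiFi-RfxCas13d and DiCas7-11. Hmcn2 was at 0.28 ± 0.15 in RfxCas13d and 0.36 ± 0.15 in DiCas7-11 (adjusted p = 0.42 and 0.25). Median log2 fold changes of the list were -0.0136, -0.00467 and 0.0009, close to those of all genes. In the average of effectors Ndst1, which sulfates heparan sulfate, rose by 0.10 ± 0.03 (adjusted p = 0.033), and Sparc, Itgb1, Mia3 and Fam20b, a kinase of the proteoglycan linker, were lower.

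Against untransfected cells the wider list was mostly lower. In RfxCas13d NTG 8 of 65 were called (12.3%, background 11.3%), 7 lower: Sparc, Fbln2, Npnt, Papln, Pxdn, Ddr1 and Bmp1, of which Npnt, an integrin ligand, fell by 0.64 ± 0.08 and Papln by 0.84 ± 0.20 on the log2 scale. Ndst1 was the 1 called higher (0.16 ± 0.05). In HiFi-RfxCas13d NTG 22 of 65 were called (20 lower) and in DiCas7-11 NTG 31 of 65 (29 lower), or 33.8% and 47.7% of the list beside backgrounds of 20.9% and 21.9%. Npnt fell by 0.72 ± 0.08 and 0.74 ± 0.08 on the log2 scale and Gpc1, a heparan sulfate proteoglycan of the cell surface, rose by 0.20 ± 0.04 and 0.12 ± 0.04. Vwa1 (-1.003 ± 0.61 and -0.99 ± 0.62), B3galt6 in HiFi-RfxCas13d (0.17 ± 0.11) and Ndst1 in DiCas7-11 (0.11 ± 0.05) did not pass. By role in DiCas7-11 NTG, 10 of 16 receptor genes were called lower, among them Itga6 (-0.27 ± 0.03), Ddr2 (-0.21 ± 0.03) and Dag1 (-0.11 ± 0.04), and 1 of 16 heparan sulfate genes, Glce (-0.15 ± 0.04).

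With the ASO 39 of 65 were called, 33 lower and 6 higher, which is 60.0% beside the background of 42.7%. The widest differences were those of Vwa1 (-1.59 ± 0.62) and Papln (-1.10 ± 0.20) among the lower, and Hmcn2 (0.62 ± 0.14) and Itga7 (0.41 ± 0.10) among the higher. All 11 genes of collagen folding and secretion were lower and 8 were called, led by the prolyl hydroxylase P4ha1 (-0.88 ± 0.06) and the lysyl hydroxylase Plod2 (-0.73 ± 0.05). Fbln1 (-0.50 ± 0.04), Fbln2 (-0.56 ± 0.03) and Sparc (-0.40 ± 0.04) fell among the components. Genes for heparan sulfate synthesis went both ways, with 5 lower and 3 higher, among them Ndst1 (0.29 ± 0.05) and Glce (0.26 ± 0.03). Genes named here beyond the stated rule were chosen after their values were seen.

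Over the 24 samples the genes outside the members whose log2 CPM was most like that of Hspg2, among 10905 with a mean of at least 50 counts, were Fn1 (Pearson r = 0.94), Tln1 (0.91), Lrp1 (0.90), Rpl35a (0.88) and Celsr3 (0.86). These are descriptions, since the samples share groups and the 2 crRNA arms. Fn1, the gene for fibronectin of the interstitial matrix, was higher with mATXN2 in all 3 effectors, by 0.31 ± 0.04, 0.27 ± 0.04 and 0.28 ± 0.04 on the log2 scale. Fn1 was named for its likeness to Hspg2 in these same samples, so these differences carry no test. A list of 13 interstitial matrix genes had 5 that were tested, among them Fn1. The others (Col1a1, Col6a1, Fbn1 and Vcan) had mean counts of 5.24 to 15.3 in these comparisons, too few to set beside Fn1. Coding sequences of Fn1, Tln1, Lrp1 and Celsr3 have 7431 to 13635 bases and that of Rpl35a 330. Among the members, Lamc1 (r = 0.65) and Lama5 (0.59) were most like Hspg2, and Nid1 (0.03) and Col4a1 (0.04) least.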

How the data were processed

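The authors quantified single-end RNA-seq reads with Salmon 1.5.2 (GRCm39, with its options for sequence and GC biases switched on) and derived gene values by lengthScaledTPM in tximport. The deposited values are expected counts, with no normalization for library size, in 24 samples of 12665725 to 22504999 counts each. Counts were rounded and fitted with edgeR 4.0.16 (R 4.3.3): at least 0.5 CPM in at least 3 samples (13901 genes), TMM, 1 coefficient per group over all 8 groups, the quasi-likelihood test, and Benjamini-Hochberg adjustment within each comparison. The study used limma-trend adjusted over 10 comparisons, and this (limma 3.58.1, prior count of 3) and DESeq2 1.42.0 were alternatives. Tested on simulated data for RfxCas13d mATXN2 against NTG (13901 genes), edgeR called 100 of 100 genes changed by a log2 value of 1, 63 of 100 changed by 0.3, and 8 of 13701 unchanged. Depth limits genes such as Nid1, at 71.2 to 136 counts. Multi-mapped reads were kept by the authors' counting, so that reads of similar chains may be split.

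Coding lengths are from GENCODE M21 (GRCm38) and cover 87.3% of tested genes. The length offset is a lowess curve (span of 0.3) per library. Lengths per kilobase are of the transcript with the longest coding sequence. The 3 samples of a group are independent biological replicates per the series' design text. The members and gene lists were chosen with earlier results of these data known. Named genes were the 10 members, Atxn2, called genes of the wider list (up to 20 in a comparison, otherwise the 2 largest changes each way), and the 5 genes most like Hspg2. Some genes that this rule or the marker lists hold are not reported here.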

Additional observations from a re-analysis of the deposited data

How the results depend on the processing

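Depth widens the error of Nid1 and leaves Lama1 and Lamb1 without a test. Of 650 values of single genes under other settings 575 were counted as the same, and of 510 with a library left out 452 were. For tested values this meant the same call and direction. For Hspg2 values given with no test it meant a move smaller than the SD within groups. The alternatives were other size factors, no filter on low counts, DESeq2, limma-trend, fitting only the samples compared, offsets and a replicate block. No value that reversed had passed the test. Same-numbered samples of compared groups correlated by -0.07 to 0.04 in their deviations, so these correlations showed no pairing by number. Whether a number marks a shared batch was not settled. The replicate block moved the wider list from 2 to 4 calls in RfxCas13d and from 1 to 2 in DiCas7-11, changed no count of the members, and called 292 of all genes in place of 193 in RfxCas13d and 251 in place of 131 in DiCas7-11. All-gene calls for mATXN2 against NTG in RfxCas13d, HiFi-RfxCas13d and DiCas7-11 (193, 41 and 131) were 707, 269 and 636 with limma-trend, 274, 66 and 286 with DESeq2, 434, 201 and 366 with no filter, 389, 105 and 1 with only the samples compared, 131, 15 and 113 with the length offset, 141, 42 and 78 with GC, and 93, 19 and 45 with both, where the average had 375 in place of 722. With a library left out they were 43 to 141 in RfxCas13d (lowest without mATXN2 replicate 3), 21 to 28 in HiFi-RfxCas13d and 16 to 605 in DiCas7-11 (without NTG replicates 2 and 1). For DiCas7-11 NTG against untransfected cells, only the samples compared gave 1855 in place of 3044. The cause of the changes was not tested.

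Counts of the other members called with mATXN2 against NTG moved as follows. In RfxCas13d (0) they were 1 with DESeq2, 2 with limma-trend and 1 with only the samples compared. In HiFi-RfxCas13d (0) they were 1 with no filter, 1 with DESeq2 and 2 with limma-trend. In DiCas7-11 (1) they were 2 with no filter, 2 with limma-trend, 0 with only the samples compared and 2 with the length and GC offset, and 0 to 2 with a library left out. In the average of effectors (4) they were 1 with the length offset, with or without the block, 2 with the length and GC offset, and 2 to 4 with a library left out. Counts of the wider list moved in RfxCas13d (2) to 4 with no filter or limma-trend and to 0 to 2 with a library left out, in HiFi-RfxCas13d (0) to 1 with limma-trend, and in DiCas7-11 (1) to 3 with no filter, 2 with DESeq2, 4 with limma-trend, 0 with only the samples compared, 2 with the length offset and block, and 0 to 3 with a library left out. Hspg2 with the ASO lost its call with DESeq2 (-0.22), limma-trend (-0.21) and the GC offset (-0.17), and lay at -0.29 to -0.11 with a library left out.

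Some uncalled differences changed sign, all on the log2 scale. Among them were Lama5 in RfxCas13d and Agrn in DiCas7-11, at 0.13 and 0.08 without an offset. With mATXN2 in RfxCas13d, the length and GC offset gave -0.034 for Lama5, -0.0025 for Lamb2, -0.050 for Col4a1 and -0.043 for Col4a2, the GC offset -0.031 for Col4a1 and -0.022 for Col4a2, and the length offset -0.018 for Col4a1 (-0.017 with the block). In HiFi-RfxCas13d Col4a2 was at -0.019 with the length offset (-0.019 with the block) and -0.014 with length and GC. In DiCas7-11 the length and GC offset gave -0.023 for Agrn and -0.0046 for Lamc1. In the average, Col4a2 was at -0.027 with the length offset (-0.028 with the block), -0.028 with GC and, then called, -0.058 with both. Against untransfected cells, Lamb2 in RfxCas13d NTG was at 0.011 with limma-trend, 0.0051 with the length offset, 0.016 with the block added, 0.042 with GC and 0.057 with both, and in DiCas7-11 NTG at 0.0068 with limma-trend, 0.057 with GC and 0.056 with both, where Nid1 was at -0.0024 with both. With a library left out, values that reversed ranged over -0.026 to 0.024 (Col4a1), -0.0034 to 0.038 (Col4a2) and -0.26 to 0.029 (Nid1) in RfxCas13d, -0.0054 to 0.041 (Col4a2) in HiFi-RfxCas13d, and -0.0071 to 0.012 (Col4a2) and -0.032 to 0.066 (Nid1) in the average. Against untransfected cells they ranged over -0.0061 to 0.045 (Agrn) and -0.13 to 0.059 (Lamb2) in RfxCas13d NTG, -0.14 to 0.054 (Lamb2) and -0.069 to 0.077 (Nid1) in DiCas7-11 NTG, and -0.097 to 0.049 (Nid1) with the ASO.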
